A study of Mus musculus with 4 samples.

Results

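Alveolar type 2 cells were found as 89 cell barcodes among 34440 kept barcodes (0.258%) in 4 single-cell libraries of mouse lung. To be kept, a barcode needed 500 or more unique molecular identifiers (UMIs, each standing for 1 captured RNA molecule), 200 or more genes and no more than 10% of its UMIs from mitochondrial genes. A kept barcode was counted as alveolar type 2 when Sftpc, the surfactant protein C gene, made up at least 0.5% of its UMIs, when Lamp3, Slc34a2, Abca3, Etv5 and Napsa together had at least 2 UMIs, and when Ptprc, Cdh5 and Col1a2, which mark leukocytes, endothelium and fibroblasts, had none. The cells therefore were chosen by measured values, and the levels of these 9 genes are given below only as a description.

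Alveolar type 2 cells are the cuboidal epithelial cells of the air sacs. They make surfactant, a film of phospholipid and protein that lowers surface tension, store it in lamellar bodies and recycle it, and they renew the alveolar epithelium after injury. They also carry receptors for bacterial products and secrete collectins, lysozyme, lipocalin-2 and chemokines into the airspace.

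All mice were wild-type male C57BL/6 animals of 6 to 7 weeks. They received 100 µL PBS or 200 µg LPS (lipopolysaccharide of E. coli O55:B5, the outer membrane component that sets off acute lung inflammation) into the trachea, and a day later the thorax of the RT groups was exposed to 1 Gy of X-rays. Lungs were taken 48 hours after the injection and 24 hours after irradiation, dissociated and passed over a Ficoll gradient of grade 1.084 meant to keep mononuclear cells, which is no enrichment for epithelium. Each of the 4 groups, named PBS, PBS+RT, LPS and LPS+RT, is 1 library of the 10x 3′ kit version 3.1, and the number of mice behind it is not given. Without replicates no test could be run on any difference below. Every interval is an exact 95% interval that covers counting error only, and in values given as a series of 4 the order is PBS, PBS+RT, LPS and LPS+RT.

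The members numbered 31 of 9039 kept barcodes in PBS (0.343%, Clopper-Pearson interval 0.233 to 0.486), 19 of 6345 in PBS+RT (0.299%, 0.18 to 0.467), 21 of 9139 in LPS (0.23%, 0.142 to 0.351) and 18 of 9917 in LPS+RT (0.182%, 0.108 to 0.287). The share in LPS was 0.67 times that in PBS (0.366 to 1.2), and the share in LPS+RT was 0.606 times that in PBS+RT (0.3 to 1.22). The share in PBS+RT was 0.873 times that in PBS (0.466 to 1.6), and the share in LPS+RT was 0.79 times that in LPS (0.397 to 1.56). All 4 intervals include 1, so a difference in the share of all members was not detectable at these numbers of barcodes. Split at 10000 UMIs per barcode, a division described below, the ratio of LPS to PBS was 0.409 (0.19 to 0.827) for barcodes under it and 4.45 (0.921 to 42.3) for the others, from 12 and 29 and from 9 and 2 barcodes. The same ratios of PBS+RT to PBS were 0.639 (0.305 to 1.27) and 4.27 (0.764 to 43.3), and the latter was 3.56 (1.03 to 15.6) with 1 UMI of Ptprc, Cdh5 and Col1a2 allowed. In both comparisons the ratio lay under 1 for the shallower barcodes and over 1 for the deeper ones. A lower share can come from fewer such cells or from more cells of other types, and in the pooled levels below fewer cells with much of an RNA and less of it in every cell cannot be told apart.

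Sftpc alone passed its threshold in 312 kept barcodes, 197 of these also had the marker UMIs, and 108 of the 197 were left out for a UMI of Ptprc, Cdh5 or Col1a2, 39 of them for exactly 1 UMI. The member with the least Sftpc had 0.547%, 6.77%, 0.992% and 0.744% of its UMIs from that gene in the 4 libraries. The barcodes just outside, which met every other condition, had at most 0.344%, 0.0427%, 0.224% and 0.457%. Exactly 2 marker UMIs were held by 9, 1, 1 and 0 members, and 15, 0, 2 and 5 barcodes with 1 marker UMI would otherwise have qualified.

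The members fell into 2 ranges of depth with no barcode between 5932 and 10182 UMIs, and this split bears on all results below. In the 4 libraries 2, 6, 9 and 3 members had at least 10000 UMIs and are called deep here. The other 29, 13, 12 and 15 are called shallow. The 20 deep members held 81.3% of all member UMIs, and by library 49.3%, 85.7%, 89.9% and 79.4%. The largest single barcode held 31.0%, 21.4%, 16.5% and 34.8%. Malat1, a nuclear RNA abundant in intact cells, had a median of 12400, 19800, 25200 and 18900 CPM (counts per 1000000 UMIs) in the deep members and of 259, 451, 837 and 727 CPM in the shallow ones, and 22 members, all of them shallow, had no Malat1 UMI. Fewer than 1% mitochondrial UMIs were found in 37 members, of which 35 were shallow. The other 2, both in LPS just above 10000 UMIs, also had little Malat1. What the shallow barcodes hold was not tested. Levels in the deep members are given beside the pooled ones for part of the genes. A pooled value without such a level may also depend on depth.

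**Figure D1:**
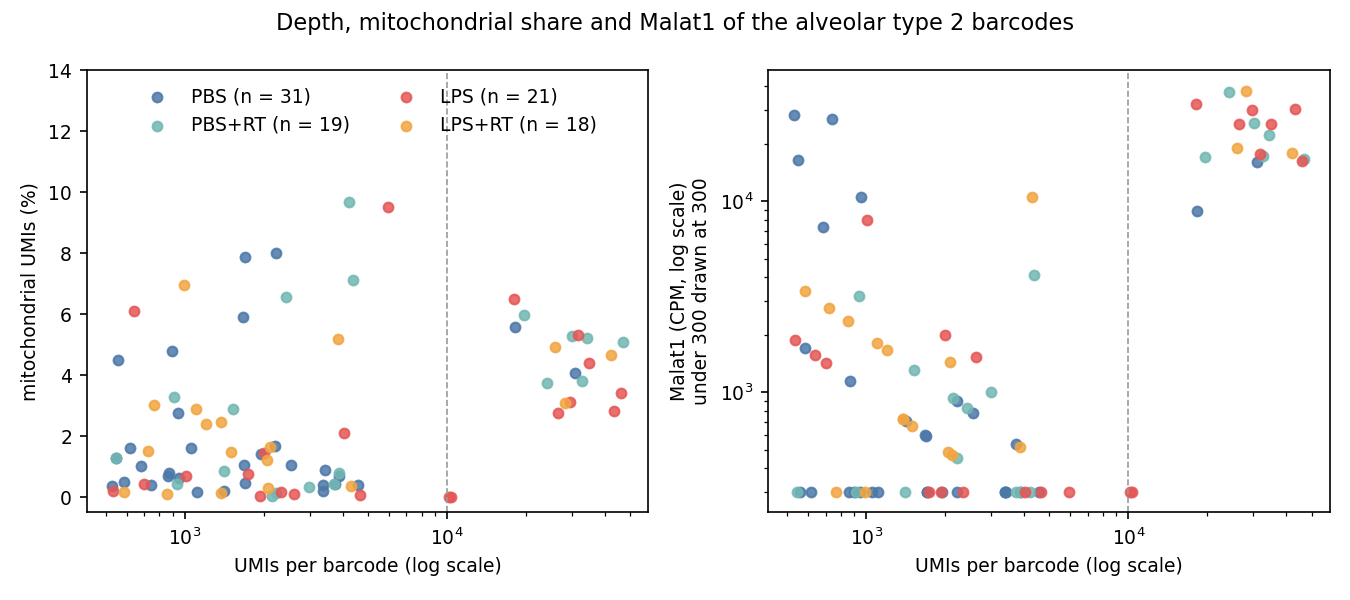
UMIs per alveolar type 2 barcode (log scale) against the share of mitochondrial UMIs in percent (left) and against the Malat1 level in CPM (right, log scale, values under 300 drawn at 300). Each point is 1 of the 89 barcodes, coloured by library, and the dashed line stands at 10000 UMIs: 20 barcodes lie to its right, and most of those to its left have little Malat1.

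The pooled member UMIs came to 99494, 219065, 278831 and 121029, so 1 UMI is worth 10.1, 4.56, 3.59 and 8.26 CPM. Median UMIs per member were 1673, 3719, 4651 and 1437.5. Whole libraries held between 65995600 and 80013887 UMIs. No member had the same counts as a member of another library.

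The defining genes were present in each library. Sftpc stood at 194000, 133000, 136000 and 149000 CPM in the members and at 865, 801, 510 and 958 CPM in the pooled other kept barcodes, here called the rest. Slc34a2, the sodium-phosphate transporter of these cells, stood at 2330, 4620, 2650 and 2950 CPM. Abca3, which pumps phospholipid into lamellar bodies, stood at 372, 927, 398 and 479 CPM, and Lamp3, a lamellar body protein, at 1030, 2080, 1940 and 1290 CPM. Genes outside the rule that stood highest over the rest included surfactant protein genes. Over 326 genes with at least 20 member UMIs in every library, the smallest ratio to the rest among the 4 libraries was 129 for the surfactant protein gene Sftpa1, 128 for Sfta2, 118 for the phospholipase gene Pla2g1b, 117 for the calcium-binding protein gene S100g, 107 for Sftpb and 103 for Sftpd. The epithelial list (Epcam, Cdh1, Krt8, Krt18, Nkx2-1 and Cldn18) summed to 2200, 1830, 1760 and 1950 CPM, against 179, 190, 62 and 133 CPM in the rest.

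Markers of other cells were present as well. The 8 alveolar type 1 markers summed to 1480, 1860, 1570 and 2040 CPM in the members and to 1600, 1610, 611 and 1080 CPM in the rest, levels of the same order. The 6 neutrophil markers summed to 151, 18.3, 183 and 124 CPM, against 1120, 1970, 8170 and 2010 CPM in the rest, with Csf3r, Cxcr2 and Mmp9 at 0 in all members, and 1 LPS barcode held 33 of these UMIs. Alveolar macrophage markers summed to 302, 59.3, 82.5 and 207 CPM and club and goblet markers to 1370, 333, 143 and 868 CPM. Erythroid markers were at 1030 CPM in PBS and between 32.3 and 86.7 CPM in the other libraries. The part of such RNA in the results was not tested. For genes that T cells should lack, T cell barcodes are given below as the background from RNA of other cells.

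The comparison of LPS with PBS asks how these cells differ 48 hours into lung inflammation without irradiation. Acute phase and antimicrobial genes, secreted proteins of early host defence, were higher in LPS. Of the 26 genes of that list 11 were measured, and all 11 had at least 2-fold more RNA in LPS. A measured gene had 50 CPM or more and 20 UMIs or more in whichever library was higher. A gene low in PBS could thus be measured only through a high level in LPS, which favours that direction. With 1 UMI worth 10.1 CPM in PBS and 3.59 CPM in LPS, 20 UMIs are also reached at a lower level in LPS. Of all 1674 measured genes, 612 (36.6%) were at least 2-fold higher and 63 (3.76%) were at least 2-fold lower. The list's median log2 ratio was 3.48, against 0.66 over all measured genes, the shift against which every log2 median of this comparison should be read. The summed list stood at 1510 CPM in PBS and at 25500 CPM in LPS, 16.9 times as much (14.4 to 20.0), and the ratio was 21.0 in the deep members (16.0 to 28.1) and 27.9 in the shallow ones (22.7 to 34.6). In the rest it was 9.13 (9.04 to 9.21), and the difference from the members was not tested.

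Lcn2 (ENSMUSG00000026822, mm10 chromosome 2, 32384633 to 32388252) encodes lipocalin-2, which binds bacterial iron carriers. It stood at 442 CPM in PBS (44 UMIs), 1060 CPM in PBS+RT (233 UMIs), 15700 CPM in LPS (4377 UMIs) and 7460 CPM in LPS+RT (903 UMIs). Per barcode the lowest, median and highest levels were 0, 54.9 and 1810 CPM in PBS and 846, 15600 and 96600 CPM in LPS. The lowest LPS barcode thus lies under the highest PBS barcode, but the LPS median lies above all PBS barcodes. Lcn2 was 35.5-fold higher in LPS than in PBS (26.4 to 48.9), and in the deep members it stood at 224 and 13300 CPM. A Lcn2 UMI was found in 16 of 31, 16 of 19, 21 of 21 and 16 of 18 members, and with every barcode thinned to 500 UMIs the shares were 19.7%, 33.0%, 96.4% and 78.9%. In T cell barcodes the thinned shares of Lcn2 were 0.439%, 0.134%, 4.69% and 0.934%, with median depths of 8877, 10502.5, 9496 and 8259 UMIs. Neutrophils also make Lcn2: barcodes chosen by neutrophil markers held 3350 CPM in LPS, less than the members.

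Saa3 (chromosome 7, 46711998 to 46715700) encodes a serum amyloid A. It had no UMI in PBS and PBS+RT and stood at 3800 CPM in LPS and 562 CPM in LPS+RT. Per barcode its median was 1140 CPM in LPS and its highest value 47600 CPM, and 15 of 21 LPS members had a UMI. Thinned to 500 UMIs, the share with a Saa3 UMI was 48.0% in LPS members and 3.14% in T cell barcodes of that library. It was at least 126-fold higher in LPS than in PBS, against a floor of 3 UMIs over the PBS members. A single barcode held 45.8% of the Saa3 UMIs in LPS, and the rest of that library stood at 2180 CPM. That barcode counts as deep with 10182 UMIs, but had 0.00982% mitochondrial UMIs and 98.2 CPM of Malat1. The median of Saa3 over the 9 deep LPS members was 111 CPM. The plot of Lcn2 and Saa3 by barcode shows this spread.

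**Figure D2:**
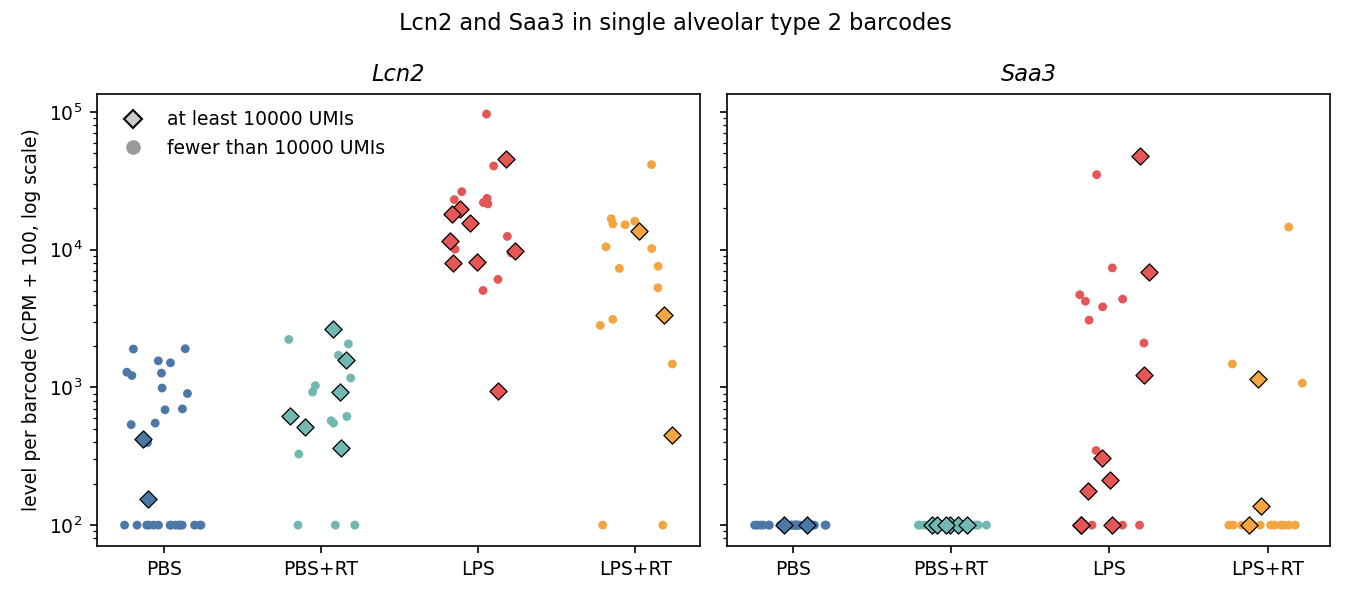
Lcn2 (left) and Saa3 (right) in every alveolar type 2 barcode, as CPM + 100 on a log scale, by library; diamonds are barcodes with at least 10000 UMIs and small points the others. For Lcn2 nearly all LPS barcodes lie above the PBS range, while Saa3 spans from no UMI to 47600 CPM within the LPS library and is at 0 in every PBS and PBS+RT barcode.

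The other acute phase genes went the same way. Hp, which encodes the hemoglobin-binding protein haptoglobin, stood at 503, 447, 2200 and 1490 CPM and was 4.37-fold higher in LPS than in PBS (3.28 to 5.96). Orm1, the orosomucoid gene, had no UMI in PBS and PBS+RT and 337 CPM in LPS, at least 11.2-fold higher. C3, the central complement component, stood at 70.4 CPM in PBS and 502 CPM in LPS, 7.14-fold higher (3.37 to 18.1). Slpi, a protease inhibitor, was at 40.2 and 857 CPM, 21.3-fold higher (8.22 to 78.9), Lrg1 at 80.4 and 635 CPM, and Itih4, an inter-alpha-trypsin inhibitor gene that stood at 0.291 CPM in T cell barcodes of LPS, at 60.3 and 319 CPM. In the deep members Hp stood at 285 and 2110 CPM, Slpi at 20.4 and 774 CPM and Itih4 at 122 and 251 CPM, so that the folds of Hp and Slpi were larger there and that of Itih4 smaller. Sod2, the mitochondrial superoxide dismutase gene, was 3.74-fold higher (2.27 to 6.56).

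**Figure D3:**
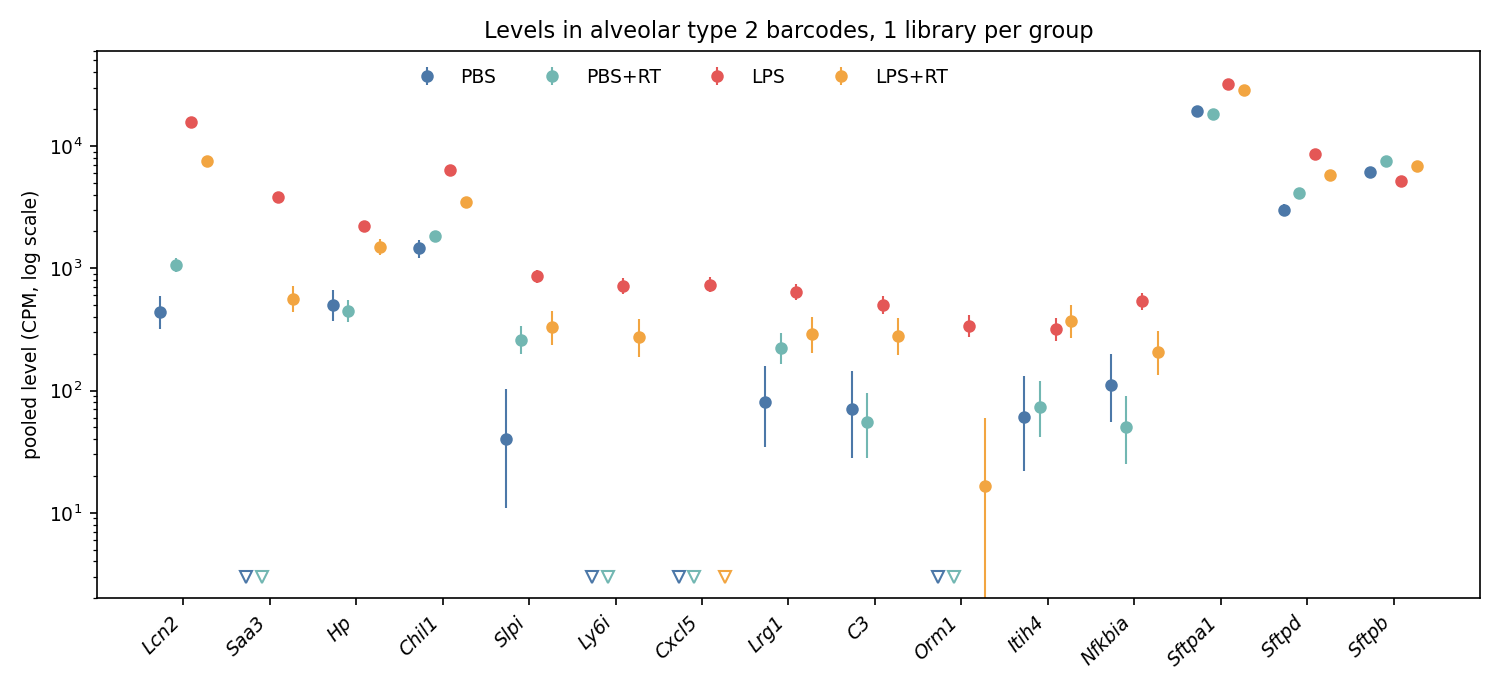
Pooled levels of 15 genes in the alveolar type 2 barcodes of each library, in CPM on a log scale, with exact 95% counting intervals; open triangles at the bottom mark libraries without a UMI of the gene. Lcn2, Saa3, Hp, Chil1, Slpi and the genes to their right up to Orm1 are highest in LPS, and Sftpb differs little between the 4 libraries. Itih4 stands at similar pooled levels in LPS and LPS+RT, but a single barcode held most of its LPS+RT UMIs.

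NF-kB genes, the signalling and feedback set that endotoxin receptors switch on, were also higher: 6 of 7 measured members were at least 2-fold higher in LPS than in PBS and none as much lower (median 2.27). The other genes of the 16 listed were not measured. The sum of the list was 3.22 times that of PBS in the deep members (2.31 to 4.62) and 1.39 times in the shallow ones (0.779 to 2.44). In the rest the ratio was 2.52 (2.51 to 2.54). Nfkbia, which encodes the inhibitor that returns NF-kB to the cytoplasm, stood at 111, 50.2, 538 and 207 CPM and was 4.87-fold higher in LPS (2.64 to 9.96). Nfkb1 stood at 70.4 and 395 CPM, 5.61-fold higher (2.63 to 14.3). T cell barcodes of LPS held 725 CPM of Nfkbia and 711 CPM of Nfkb1, more than the members. T cells transcribe these genes themselves, and the part of RNA from other cells was not tested. Of the receptor list 4 of 7 measured genes were higher (Cd14, Ifnar2, Il10rb and Osmr), with Cd14, the co-receptor for LPS, at 40.2 and 201 CPM. It was 5.0-fold higher (1.85 to 19.0), while Tlr4, the LPS receptor itself, had 2, 17, 8 and 3 UMIs, too few to be measured in this comparison.

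Of the 22 genes of the epithelial chemokine and cytokine list 4 were measured, each of them higher by 2-fold or more in LPS. The summed list was 4.57 times that of PBS in the members (3.32 to 6.44). In the rest the ratio was 12.5 (12.4 to 12.6), and the difference from the members was not tested. Cxcl5 (a neutrophil attractant) had no UMI in PBS, PBS+RT and LPS+RT and stood at 735 CPM in LPS in 11 of 21 members, at least 24.4-fold higher than in PBS. Thinned, the share with a Cxcl5 UMI was 20.7%, against 0.0358% of T cell barcodes, and a single member held 54.1% of the UMIs. Cxcl1, another neutrophil attractant, stood at 30.2, 4.56, 237 and 24.8 CPM, 7.85-fold higher in LPS than in PBS (2.57 to 39.0). It had no UMI in the deep members of PBS and was found in 6 of the 9 deep members of LPS. Cxcl2 was at 96.8 CPM in LPS members and at 955 CPM in T cell barcodes there, and thinned to 500 UMIs the shares with a Cxcl2 UMI were 19.4% and 11.5%. The part of RNA from other cells in it was not tested. Il33, the alarmin gene, stood at 201 and 531 CPM, 2.64-fold higher (1.65 to 4.45).

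Ly6i, a Ly6 family gene of unclear role, had no UMI in PBS and PBS+RT and stood at 717 CPM in 18 of 21 LPS members, at least 23.8-fold higher than in PBS. The thinned share with a Ly6i UMI was 39.0% in LPS members and 0.401% in T cell barcodes. Chil1, which encodes a chitinase-like secreted protein, stood at 1450, 1840, 6300 and 3500 CPM and was 4.36-fold higher (3.67 to 5.2). Its lowest LPS barcode was at 1860 CPM and its median PBS barcode at 902 CPM. Among the 8 genes with the highest ratio under the naming rule were also Cd83, Spink5 and Gch1, at 298, 233 and 204 CPM in LPS and without a UMI in PBS. These 3 were found in 5, 6 and 10 of the LPS members.

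Most surfactant genes differed by less than 2-fold between LPS and PBS. Of 10 measured genes for surfactant proteins and their processing, Sftpd, Ctsc and Slc39a8 were at least 2-fold higher and none as much lower (median 0.21, against 0.66 for all genes). Sftpd, which encodes the collectin surfactant protein D that binds bacterial sugars, stood at 2990, 4150, 8610 and 5760 CPM. Its lowest LPS barcode had 2980 CPM and its median PBS barcode 1800 CPM, and pooled it was 2.88-fold higher in LPS (2.56 to 3.27). Sftpa1, the gene of the other lung collectin, stood at 19400, 18200, 31900 and 28700 CPM, 1.64-fold higher (1.56 to 1.72). Within the deep members Sftpa1 stood at 12700 and 29800 CPM. Sftpb, a hydrophobic surfactant protein gene needed to spread the film, stood at 6150, 7560, 5150 and 6850 CPM and was 1.19-fold lower in LPS (1.08 to 1.31). Ctsc, a lysosomal protease gene, stood at 663, 598, 1790 and 1290 CPM. Cxcl15, the gene of the lung-specific chemokine lungkine, stood at 5690, 5250, 7130 and 4620 CPM.

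Lipid synthesis genes had a median near that of all genes. Of 16 measured members of fatty acid and phosphatidylcholine synthesis, 7 were at least 2-fold higher in LPS than in PBS and none as much lower (median 0.93), a share close to the 36.6% of all genes. Scd1, the stearoyl-CoA desaturase gene, stood at 2480, 2050, 5100 and 3020 CPM, 2.05-fold higher (1.79 to 2.36). In the deep members it stood at 3010 and 5400 CPM, a difference of less than 2-fold. Elovl1, a fatty acid elongase gene, stood at 221, 566, 620 and 487 CPM. Lpcat1, which remodels surfactant phosphatidylcholine, was at 362 and 767 CPM, 2.12-fold higher (1.48 to 3.11). Cftr, the chloride channel gene, stood at 30.2, 183, 430 and 116 CPM from 3, 40, 120 and 14 UMIs, a ratio of LPS to PBS of 14.3 (4.77 to 70.2). Its PBS UMIs all lay in the 2 deep members, which stood at 54.9 and 64.8 CPM, above the pooled level. The 9 deep LPS members had a median of 221 CPM and a highest value of 996 CPM, so the difference among deep members was smaller.

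Interferon response genes were low in the members. The interferon-gamma list summed to 141, 178, 165 and 124 CPM in the members, from 14, 39, 46 and 15 UMIs, and to 809, 1220, 3240 and 897 CPM in the rest. The ratio of LPS to PBS was 1.17 in the members (0.633 to 2.31) and 4.0 in the rest (3.96 to 4.04), and the type I interferon list gave 1.07 (0.573 to 2.12) and 2.06 (2.04 to 2.09). The members' intervals end below the ratios in the rest for interferon-gamma, but not for type I interferon. In the deep members alone the interferon-gamma ratio was 1.65 with an interval of 0.652 to 5.33, which includes the ratio of the rest. The difference between members and rest was not tested, and no gene of either list was measured in any of the 4 comparisons.

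Antigen presentation genes of class II stood above the rest in each library, and those of class I below it. The MHC class II list summed to 5180, 3640, 7410 and 5950 CPM in the members and to 3590, 2080, 3440 and 3370 CPM in the rest. Its ratio of LPS to PBS was 1.43 (1.3 to 1.58), and 1.07 in the deep members (0.948 to 1.21). Cd74, the invariant chain gene, was at 2870, 2260, 4880 and 3750 CPM, with 292, 61.4, 319 and 385 CPM in T cell barcodes. The MHC class I and immunoproteasome list summed to 1750, 1330, 3180 and 2150 CPM, and 2 of its 8 measured genes passed 2-fold on the higher side of LPS against PBS. H2-K1, a class I heavy chain gene, stood at 392 and 929 CPM, 2.37-fold higher (1.69 to 3.41), below the 1330 CPM of T cell barcodes in LPS.

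**Figure D4:**
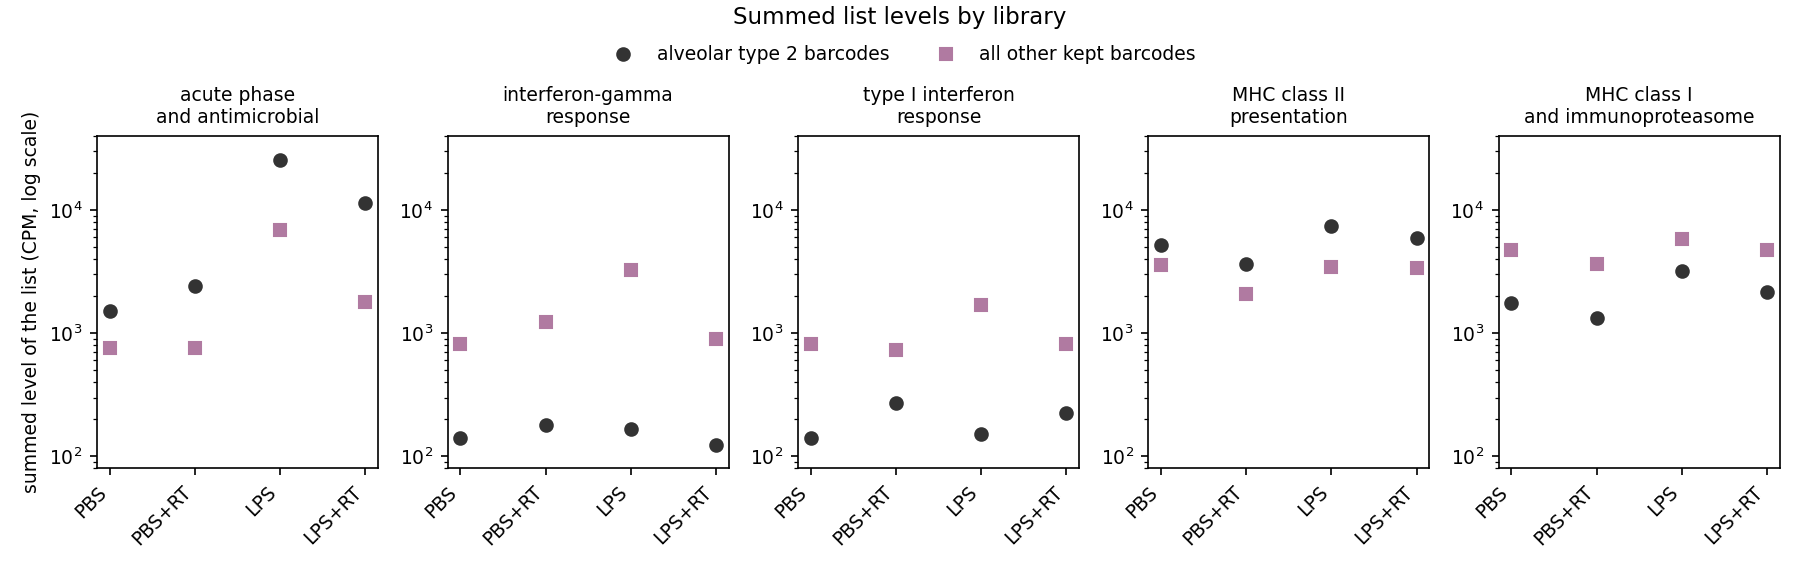
Summed level of 5 gene lists in CPM (log scale) by library, in alveolar type 2 barcodes (circles) and in all other kept barcodes (squares). In the members the acute phase list goes from 1510 CPM in PBS to 25500 CPM in LPS, while the interferon-gamma list stays between 124 and 178 CPM, as it goes from 809 to 3240 CPM in the other barcodes.

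Fewer measured genes were at least 2-fold lower in LPS than in PBS (63) than were as much higher (612). The counts were closer when scaled by the median ratio (248 lower and 263 higher) and in the shallow members (31 and 39). The limit for a measured gene stands at a higher level in PBS than in LPS, and its part in these counts was not tested. Mt1, which encodes the metal-binding protein metallothionein 1, stood at 432, 201, 43.0 and 430 CPM and was 10.0-fold lower in LPS than in PBS (5.2 to 20.9), at 265 and 43.9 CPM in the deep members. Of the ferritin subunits, the heavy chain gene Fth1 stood at 3370, 3070, 7240 and 7280 CPM and was 2.15-fold higher (1.91 to 2.42), while the light chain gene Ftl1 stood at 1750, 1500, 828 and 2290 CPM and was 2.11-fold lower (1.72 to 2.58), but less than 2-fold lower in the deep members, at 1320 and 718 CPM. Among deep members the median level of Fth1 was 2160, 2450, 4380 and 3570 CPM. In LPS+RT a single shallow barcode stood at 89500 CPM of it. T cell barcodes of LPS held 4940 CPM of Fth1. Among the genes with the lowest ratios under the naming rule were Tsc22d1, Lmo4, Cebpd, Rgcc, Areg, Atf4 and Mid1ip1. Tsc22d1, a transcription regulator, stood at 513 CPM in PBS and 133 CPM in LPS, 3.86-fold lower (2.48 to 6.07), and at 876 and 148 CPM in the deep members. Cebpd, a C/EBP transcription factor gene, stood at 814, 110, 247 and 438 CPM, and Mid1ip1, a regulator of fatty acid synthesis, at 412, 808, 147 and 372 CPM. The deep PBS members stood at 1210 and 1520 CPM of Cebpd, and the deep LPS members had a median of 203 CPM. For Rgcc, Areg and Cebpd a single barcode held 80.6%, 55.3% and 58.0% of the PBS UMIs.

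The comparison of PBS+RT with PBS asks what 1 Gy leaves in the uninflamed lung after 24 hours, and it shares the PBS library with the comparison above. For p53 targets, which radiation is known to raise, no higher level was detectable. Cdkn1a, which encodes the cell cycle inhibitor p21, stood at 241, 219, 111 and 99.1 CPM and was 1.1-fold lower in PBS+RT than in PBS, with an interval for that fold from 0.645 to 1.83. Mdm2, which encodes the p53 antagonist, had 0, 7, 6 and 7 UMIs, too few to be measured. The p53 list of 24 genes summed to 1420, 1210, 1240 and 892 CPM in the members and to 2510, 3670, 2590 and 3090 CPM in the rest. The ratio of its sum in PBS+RT to PBS was 0.854 in the members (0.693 to 1.05) and 1.47 in the rest (1.46 to 1.47). It was 0.626 in the deep members (0.49 to 0.805) and 1.37 in the shallow ones (0.876 to 2.13), and the difference between these was not tested.

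Of 1437 measured genes, 543 (37.8%) were at least 2-fold higher in PBS+RT and 79 (5.5%) were at least 2-fold lower (median 0.67). The deep members alone had 402 higher and 55 lower of 1141 measured genes, and the shallow members 15 and 17 of 227. Over the 1257 genes with a mean of at least 100 CPM in the 4 libraries, a choice made after seeing the data, 280 (22.3%) were higher and 111 (8.83%) lower, with a median of 0.07. In LPS against PBS the counts were 277 (22.0%) higher and 86 (6.84%) lower over those genes, 446 and 49 in the deep members, and 39 and 31 in the shallow members.

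Read against 37.8%, lipid synthesis genes were near the background. Among fatty acid and phosphatidylcholine synthesis genes 7 of 16 were at least 2-fold higher and none lower (median 0.78). Lpcat1 stood at 362 CPM in PBS and 1150 CPM in PBS+RT, 3.19-fold higher (2.25 to 4.66), and Elovl1, a fatty acid elongase gene, at 221 and 566 CPM, 2.56-fold higher (1.62 to 4.23). Acsl4, an acyl-CoA synthetase gene for polyunsaturated fatty acids, stood at 201, 872, 764 and 364 CPM, 4.34-fold higher (2.73 to 7.26). Of the acute phase list 3 of 5 measured genes were higher (Lcn2, Slpi and Lrg1), Lcn2 by 2.41-fold (1.74 to 3.4) and in the deep members from 224 to 1120 CPM. A single PBS+RT barcode held 51.5% of the Lcn2 UMIs, 77.2% of those of Slpi and 59.2% of those of Lrg1. Il33 stood at 201 and 1120 CPM, with 66.7% of the latter in 1 barcode.

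The transitional list, genes of epithelial cells on the way from the type 2 to the type 1 state, went the other way. Of 9 measured members 6 were at least 2-fold lower in PBS+RT (Krt8, Krt18, Sfn, Areg, Anxa1 and Anxa2) and 1 was higher (Clu), with a median of -1.26. The sum of the list was 0.3 times that of PBS in the deep members (0.256 to 0.352) and 0.811 times in the shallow ones (0.595 to 1.1). Dissociation and immediate early genes, which tissue handling is known to raise, were lower too, 4 of 13 at least 2-fold and 1 as much higher (median -0.75), with a ratio of their sum of 0.527 in the deep members (0.478 to 0.583), and their part in the transitional values was not tested. Krt8, a keratin of simple epithelium, stood at 352, 95.9, 316 and 306 CPM and was 3.67-fold lower (2.08 to 6.63), at 591 and 101 CPM in the deep members. Areg, the epidermal growth factor receptor ligand amphiregulin, stood at 472, 4.56, 158 and 719 CPM. Its deep members stood at 842 and 878 CPM in PBS and at no more than 29.1 CPM in PBS+RT. These PBS levels rest on few barcodes: a single one held 68.6% of the Krt8 UMIs and 55.3% of those of Areg, so the values describe that barcode as much as the library. Cldn3, an epithelial tight junction gene, stood at 593, 274, 290 and 595 CPM and was 2.17-fold lower in PBS+RT (1.49 to 3.15), with 37.3% of its PBS UMIs in 1 barcode.

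Under the naming rule the highest ratios of PBS+RT to PBS belonged to Pde4c, Clip4, Spink5, Cd55, Sgpp2, Sugct, Rad51b and Pfkfb4, of which all but Rad51b had no UMI in PBS. Clip4 stood at 173 CPM in 7 of 19 barcodes, at least 5.75-fold higher. Cd55, which encodes a complement decay factor, stood at 164 CPM in 8 barcodes, at least 5.45-fold higher. In the other direction the rule named Areg, Lyz1, Cebpd, Mal, Krt8, Phlda1, Pdlim1 and Csrp1. Lyz1, a lysozyme gene, stood at 1260, 123, 1140 and 1650 CPM, with 95.6% of the LPS UMIs in 1 barcode and no UMI in the deep members of PBS. Mal, a membrane raft protein gene, stood at 271 CPM in PBS and at 63.9 CPM in PBS+RT, 4.25-fold lower (2.15 to 8.76).

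The comparison of LPS+RT with LPS asks how the inflamed lung differs once irradiated, and it shares the LPS library with the comparison of LPS with PBS. Of 1715 measured genes, 74 (4.31%) stood at least 2-fold higher in LPS+RT and 414 (24.1%) at least 2-fold lower (median -0.38). Over genes with a mean of at least 100 CPM the counts were 74 (5.89%) and 136 (10.8%), with a median of -0.02. Acute phase genes were lower: 8 of 11 were at least 2-fold lower and none as much higher (median -1.37). The summed list stood at 11300 CPM in LPS+RT and 25500 CPM in LPS, a ratio of 0.443 (0.418 to 0.469), 0.446 in the deep members and 0.305 in the shallow ones. All 3 deep members of LPS+RT had top doublet scores, which bears on every deep value of that library. In the rest the ratio was 0.259 (0.258 to 0.261), so the lower sum was not particular to the members. Neutrophil markers in the rest, whose cells make some of these proteins, stood at 2010 and 8170 CPM, and their part was not tested. Without the members that had at least 3 UMIs of other cells' markers, the median of the list was -0.14 over 7 measured genes. That setting left 75072 UMIs in LPS and 12806 in LPS+RT, so fewer genes were measured, and the cause of the move was not tested.

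Lcn2 was 2.1-fold lower in LPS+RT than in LPS (1.96 to 2.26) and less than 2-fold lower in the deep members (6880 and 13300 CPM), with a median per barcode of 7350 CPM against 15600 CPM and 62.9% of its UMIs in LPS+RT in 1 barcode. Saa3 was 6.76-fold lower (5.29 to 8.77) and was found in 5 of 18 members. Cxcl5 had no UMI in LPS+RT, at least 29.7-fold lower. Orm1 had 2 UMIs there, all in 1 barcode, a fold of 20.4 lower (5.49 to 171). Ly6i stood at 273 CPM in 8 members and was 2.63-fold lower (1.81 to 3.93), and in the deep members it stood at 156 CPM against 658 CPM. Itih4 stood at 319 CPM in LPS and 372 CPM in LPS+RT, a 1.16-fold higher level whose interval (0.795 to 1.69) includes 1. A single LPS+RT barcode held 34 UMIs of Itih4, most of those in the members of that library. Among deep members the median of Itih4 was 196 CPM in LPS and 106 CPM in LPS+RT.

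Of the NF-kB list, 5 of 7 measured genes were at least 2-fold lower in LPS+RT and none as much higher (median -1.38). Its sum was 0.535 times that of LPS in the deep members (0.438 to 0.65) but 1.79 times in the shallow ones (1.05 to 3.12), the opposite direction. In the rest the ratio was 0.572 (0.569 to 0.575). Pooled, Nfkbia was 2.6-fold lower (1.7 to 4.15), and Birc3, an apoptosis inhibitor and NF-kB target, stood at 237 CPM in LPS and 33.0 CPM in LPS+RT. Of the chemokine list 3 of 4 measured genes were as much lower (Cxcl1, Cxcl5 and Il33), with Cxcl1 9.55-fold lower (3.13 to 47.5). A further list held genes of the unfolded protein and integrated stress response, among them chaperones of the endoplasmic reticulum. Of these genes, 6 of 11 measured were at least 2-fold lower and none as much higher (median -1.05). Their sum was 0.518 times that of LPS in the deep members (0.442 to 0.606) and 1.43 times in the shallow ones (0.934 to 2.19). Hspa5, which encodes the chaperone BiP, stood at 201, 397, 793 and 306 CPM and was 2.59-fold lower (1.82 to 3.78), with 198 CPM against 858 CPM in the deep members. Calr, the calreticulin gene, stood at 271, 142, 398 and 165 CPM. None of the 10 surfactant genes differed by 2-fold (median -0.17): Sftpd was 1.5-fold lower (1.37 to 1.63), Sftpa1 1.11-fold lower (1.07 to 1.16) and Sftpb 1.33-fold higher (1.22 to 1.45). Scd1 was 1.69-fold lower (1.5 to 1.9), and its LPS+RT UMIs lay to 67.8% in 1 barcode.

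Higher in LPS+RT were Mt1, 9.98-fold (5.26 to 20.5), with 55.8% of its LPS+RT UMIs in 1 barcode, and Ftl1, 2.76-fold (2.31 to 3.3), which stood at 718 and 1270 CPM in the deep members of LPS and LPS+RT. The naming rule gave Cyp2b10, Slain1, Fry, Igf1r, Gadd45b, Prkar2a, Areg and Acot1 as highest. Most of these rest on a single barcode, which held 95.2% of the LPS+RT UMIs of Slain1, 93.5% of those of Fry and 95.2% of those of Igf1r. Acot1, an acyl-CoA thioesterase gene, was the most evenly spread of them, at 46.6 CPM in LPS and 182 CPM in LPS+RT, 3.9-fold higher (1.88 to 8.43). The lowest were Cxcl5, Galnt13, Spink5, Naaladl2, St3gal3, Slit3, Parp8 and Orm1, of which all but Orm1 had no UMI in LPS+RT. Cdkn1a was 1.12-fold lower in LPS+RT than in LPS, with an interval for that fold from 0.56 to 2.4.

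LPS+RT set against PBS+RT asks how lungs given LPS or PBS differ when all were irradiated, and it shares a library with each of the preceding pair of comparisons. Of 1510 measured genes, 109 (7.22%) stood at least 2-fold higher in LPS+RT and 349 (23.1%) at least 2-fold lower (median -0.37). Over genes with a mean of at least 100 CPM the counts were 110 (8.75%) and 127 (10.1%). Against 7.22%, acute phase genes stood apart: 5 of 9 measured genes were at least 2-fold higher (Lcn2, Saa3, Hp, C3 and Itih4) and none as much lower, with a median of 1.73. Lcn2 was 7.01-fold higher (6.07 to 8.14), Saa3 at least 41.0-fold, Hp 3.32-fold (2.59 to 4.3), C3 5.13-fold (2.59 to 10.9) and Itih4 5.09-fold (2.82 to 9.65). For Itih4, as for Lcn2, a single barcode held most of the LPS+RT UMIs. The summed list was 4.69 times as high (4.24 to 5.19), and 2.36 times as high in the rest (2.33 to 2.38).

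Of the other groups, Ly6i was at least 19.9-fold higher and Nfkbia 4.11-fold higher (1.95 to 9.26) in LPS+RT than in PBS+RT, while 1 of 3 measured NF-kB genes passed 2-fold. Surfactant genes had 2 of 10 at least 2-fold higher (Ctsc and Lyz1) and 1 lower (Adgrf5, a receptor gene that restrains surfactant secretion). Sftpd was 1.39-fold higher (1.26 to 1.53), Sftpa1 1.58-fold (1.5 to 1.65) and Chil1 1.9-fold (1.66 to 2.19). In the transitional list 5 of 11 measured genes were higher (Krt8, Clu, Areg, Anxa1 and Anxa3) and 1 was lower (S100a6), with a median of 0.97. Clu, Areg and Anxa1 each had most of their LPS+RT UMIs in a single barcode. Anxa1 was found in 2 of 18 LPS+RT members. Dissociation and immediate early genes had 7 of 15 higher and none lower (median 1.0), but the median was -1.22 without the members that had at least 3 UMIs of other cells' markers. Under the naming rule Saa3, Areg, Ly6i, Slain1, Hspa1b, Igf1r, Lyz1 and Hspa1a were highest and Galnt13, Rad51b, Immp2l, Spink5, Bex2, Mir99ahg, Pde4c and Cc2d2b lowest. Bex2 was the most widely detected of the latter, at 525 CPM in 14 of 19 PBS+RT members and 24.8 CPM in 2 of 18 LPS+RT members, from 115 and 3 UMIs, a fold of 21.2 lower (7.07 to 104), and with barcodes thinned to 500 UMIs the shares with a Bex2 UMI were 20.1% and 2.52%.

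**Figure D5:**
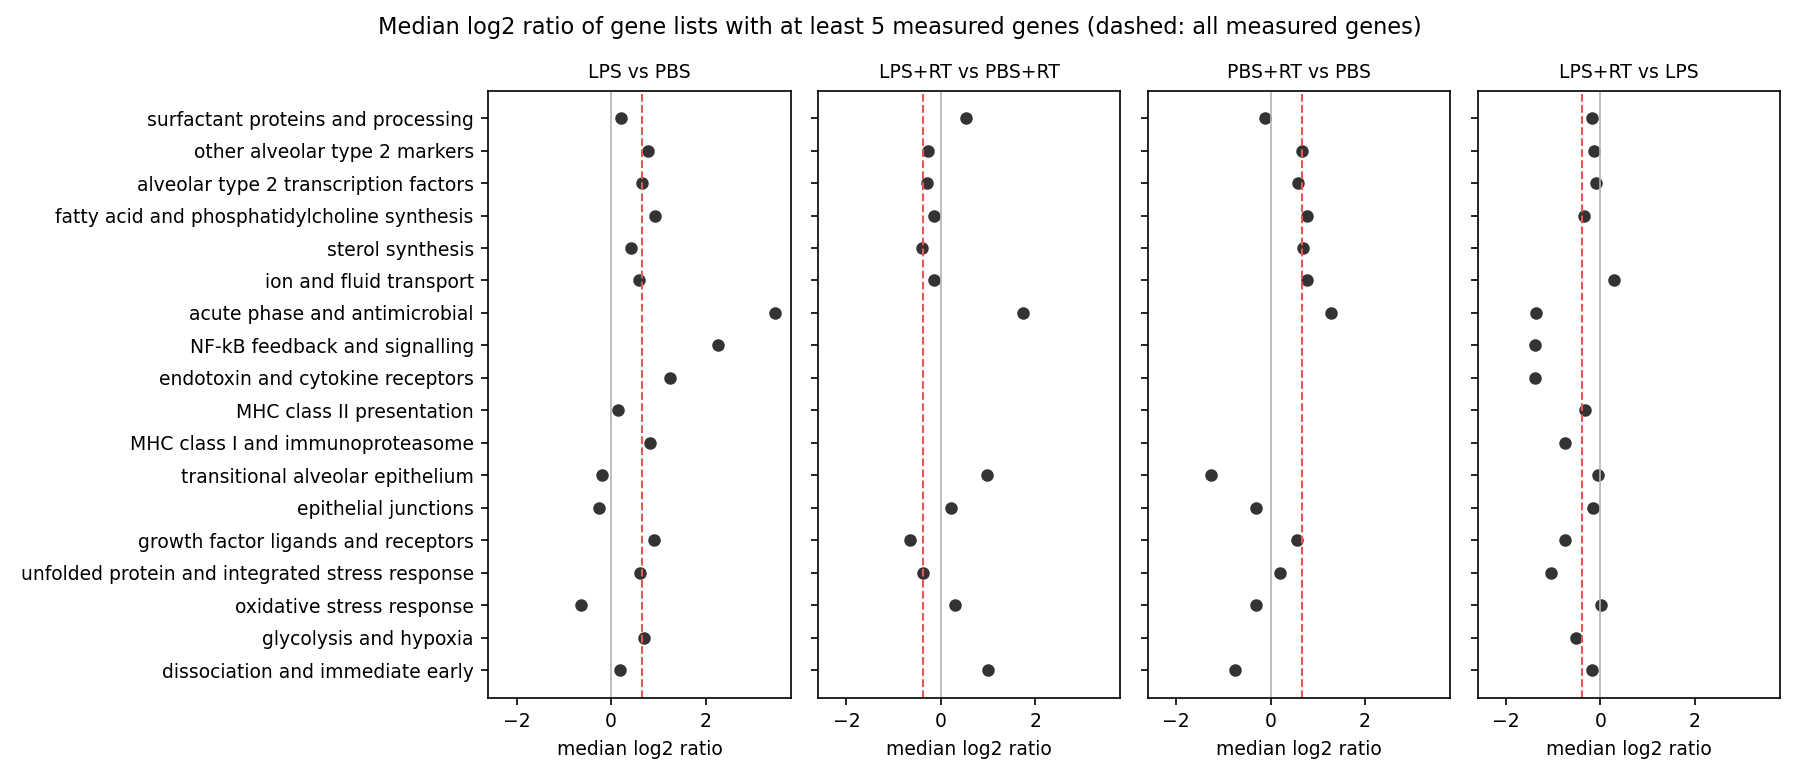
Median log2 ratio of each gene list with at least 5 measured genes in the 4 comparisons; the grey line stands at 0 and the dashed line at the median of all measured genes. The acute phase list lies right of the dashed line in LPS against PBS (3.48) and LPS+RT against PBS+RT (1.73) and left of it in LPS+RT against LPS (-1.37), while the surfactant list stays between -0.17 and 0.53.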

How the data were processed

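The authors deposited raw UMI counts per gene and barcode for 4 libraries, and per the file headers Cell Ranger 7.0.1 made them. The submitters' processing notes name mm10, R 4.2.2 and Seurat 4.3.0, and whether intronic reads were counted is not given in the sources used here. Gene positions are from GENCODE M21. Barcodes were chosen by the rule in the opening, no doublet caller was applied to the main values, and UMIs were summed over the members of a library and divided by their total (CPM) in Python 3.11.15 with numpy 2.4.6, scipy 1.17.1 and pandas 2.3.3. Ratios have exact conditional binomial intervals, levels exact Poisson intervals, and a gene at 0 was set at 3 UMIs. Lists held 447 matched genes. Members and lists were chosen with earlier results of these data known. Named are, per comparison, the 8 highest and 8 lowest ratios after adding 10 CPM, among genes of 50 CPM and 20 UMIs or more in the higher library, detected in at least 10% of its members and there no lower than in the rest, without mitochondrial, ribosomal, hemoglobin, immunoglobulin or unnamed genes and markers of other cells, plus members of each list described, and always the surfactant protein genes, Lcn2, Cxcl15, Nkx2-1, Cdkn1a and Mdm2. Of these genes, 1 is not reported here. Other genes named were chosen after their values were seen. The intervals of ratios and the 2-fold rule were tried on simulated pooled counts that hold counting error only, without spread between barcodes. The membership rule, lists, thinning and naming rule were not tried on simulated data.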

Additional observations from a re-analysis of the deposited data

Results flagged for a closer look

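The genes listed here lie outside the membership rule. In each, the LPS and PBS libraries, or the irradiated and unirradiated ones, differed at least 2-fold in opposite directions in the 2 pairs of libraries. The counting intervals of these ratios exclude 1, and no barcode held most of the UMIs of the higher library. The share of such genes among all measured genes is not given, so their number is not read as a result. The difference between the pairs was not tested, and with 1 library per group it has no replicate check. The log2 ratios of LPS against PBS and of LPS+RT against PBS+RT were 1.93 and -1.26 for Acsl4, 1.51 and -1.99 for Cd55, -1.03 and 1.12 for Cldn3, 1.19 and -1.08 for Met, the hepatocyte growth factor receptor gene, 2.56 and -4.95 for the noncoding Mir99ahg, and 2.51 and -1.95 for Naaladl2. Cd55 had no UMI in PBS and Naaladl2 none in LPS+RT, and those libraries were set at 3 UMIs. For Met the median over the deep members was 170, 190, 130 and 119 CPM in PBS, PBS+RT, LPS and LPS+RT, values closer together than the pooled ratios.

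The log2 ratios of PBS+RT against PBS and of LPS+RT against LPS were 2.12 and -1.07 for Acsl4, 1.06 and -3.02 for Bex2, 1.21 and -1.08 for the fatty acid transporter gene Cd36, -1.11 and 1.03 for Cldn3, 1.41 and -1.11 for Jun, 1.49 and -1.24 for the malic enzyme gene Me1, 1.25 and -1.01 for Met, and 3.67 and -3.84 for Mir99ahg. Apart from Cldn3, all went from higher to lower, as did the medians over all measured genes, which were 0.66 and -0.37 in the first pair and 0.67 and -0.38 in the second.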

How the results depend on the processing

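None of the alternatives to the membership rule moved a share ratio beyond its counting interval (32 values). In what follows pairs are genes at least 2-fold higher and lower. In PBS+RT against PBS (543 and 79, 87.3% of them higher), 119 were lower with 1 UMI of Ptprc, Cdh5 or Col1a2 allowed, 160 were higher at no more than 5% mitochondrial UMIs, and the pair was 135 and 20 without members with at least 3 UMIs of other cells' markers, 15 and 17 in shallow members, 270 and 267 (50.3% higher) when scaled by the median ratio, and 280 higher over genes with a mean of at least 100 CPM. In LPS against PBS (612 and 63, 90.7% higher) the same settings gave 160 and 24, 39 and 31, 263 and 248 (51.5% higher), and 277 higher. In LPS+RT against PBS+RT (109 and 349, 23.8% higher), 79 were lower at no more than 5% mitochondrial UMIs and 39 were higher without the top 8% of Scrublet scores, and the pair was 19 and 89, 29 and 24, and 200 and 218 (47.8% higher), with 127 lower by mean. In LPS+RT against LPS (74 and 414, 15.2% higher), 35 were higher without the top Scrublet scores, the pair was 12 and 87, 22 and 25, and 141 and 240 (37.0% higher), 49 were higher without the deepest member of each library, and 266 and 136 were lower at 100 CPM in the higher library and by mean. The mean, depth and deepest-member settings were chosen after seeing the data.

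Across all alternatives that gave a value, the log2 median of the acute phase list stayed between 2.82 and 4.21 in LPS against PBS, 1.49 and 3.55 in LPS+RT against PBS+RT, and -1.79 and -0.14 in LPS+RT against LPS, and Lcn2 in LPS against PBS between 4.41 and 5.89. The sign turned for the dissociation list in PBS+RT against PBS (1.06) and LPS+RT against PBS+RT (-1.22) without members with other cells' markers, and in the latter without the top Scrublet scores (-0.63). It turned in LPS against PBS for the oxidative stress list in deep members (0.05) and with barcodes weighted equally (0.50), for the other alveolar type 2 markers in shallow members (-0.90), for Rgcc at no more than 5% mitochondrial UMIs (0.44), and for Cebpd without members with other cells' markers (0.06). It turned for Areg in LPS+RT against LPS (-0.39) without the top Scrublet scores, which remove all 3 deep members of LPS+RT. The cause was not tested. Genes with fewer than 20 UMIs and lists with fewer than 5 measured genes under an alternative gave no value. No paired analysis was possible because each group is 1 library. With 18 to 31 barcodes a library, genes with fewer than 20 UMIs in the higher library were not measured. Without the limit of 50 CPM the numbers of measured genes stayed at 1437, 1674, 1510 and 1715, so the limit of 20 UMIs decided. As 1 UMI is worth 10.1, 4.56, 3.59 and 8.26 CPM, that limit stands at a different level in each library. Its part in the counts of higher and lower genes was not tested.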

Other observations

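The cell cycle list summed to 492, 365, 416 and 446 CPM in the members of PBS, PBS+RT, LPS and LPS+RT, from 49, 80, 116 and 54 UMIs, and to 722, 481, 873 and 833 CPM in the other kept barcodes. Nkx2-1, the transcription factor gene that sets lung epithelial identity, stood at 191, 283, 194 and 149 CPM.

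Clu, which encodes the secreted chaperone clusterin, stood at 50.3, 137, 269 and 330 CPM. It was 5.35-fold higher in LPS than in PBS (2.19 to 17.0), at 81.5 CPM in the deep members of PBS and 203 CPM in those of LPS. Clu was 2.41-fold higher in LPS+RT than in PBS+RT (1.47 to 4.01). A single barcode held 62.5% of its UMIs in LPS+RT. Cd36 stood at 523, 1210, 958 and 454 CPM, against 120, 129, 48.0 and 124 CPM in T cell barcodes.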
